A study of Mus musculus with 24 samples.

Results

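The genes described here encode subunits of the transcription factor NF-kB, IkB family and feedback proteins that regulate it, and a pair of its classic targets. They were chosen by gene symbol from a list of 9. The subunits are Nfkb1, Nfkb2, Rela and Relb, and the IkB family genes are Nfkbia and Nfkbiz. Tnfaip3 is a ubiquitin-editing inhibitor, and Tnfaip2 and Birc3 are targets. The platform annotation named a probe set for 8 of the 9 genes, and Nfkb1 was not analysed here. Those 8 genes had 15 of the 22690 probe sets of the array. All 8 passed the filter on low signal and are among the 8008 genes tested. The rule itself used no measured value, but the list was chosen with earlier results of these data known.

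NF-kB dimers rest in the cytoplasm, held there by IkB proteins. Toll-like receptors, the interleukin 1 receptor and tumour necrosis factor receptors activate IkB kinase, IkB is degraded, and the freed dimers enter the nucleus. Among the genes they switch on are their own inhibitors, Nfkbia and Tnfaip3, so that transcripts of these inhibitors are commonly read as a sign of recent NF-kB activity. In the lung the pathway is known for driving chemokines, acute phase proteins and adhesion molecules in epithelium, macrophages and endothelium.

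Transcripts were measured in the left lung lobe of 24 male mice, each hybridized to its own Affymetrix array. C3H/HeOuJ mice (OuJ), with a sufficient Tlr4, were compared with C3H/HeJ mice (HeJ), which carry a dominant negative form of this lipopolysaccharide receptor. Each strain had 4 groups of 3 mice: air, and ozone, a reactive oxidant that damages the lung lining, for 6, 24 or 48 h. The question was how the lung transcripts of mice deficient in Tlr4 respond to ozone. All mice are of the C3H background. The labels state neither their age nor the ozone concentration.

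To show where the letters of a kappaB site lie near the start of these genes, the stretch from 100 bases before to 20 bases after the annotated start is printed for 3 of the genes and, for comparison, for Bcl3, an IkB family gene, and Cxcl1, a neutrophil chemokine, both of which rose after ozone and have a match in the printed stretch. Saa3 and Lcn2, which rose as well, had no match in their promoter in the table. The sequences are from RefSeq, build GRCm38.p6, 5′ to 3′ on the gene's strand. Capitals mark matches to the degenerate kappaB consensus, a decamer searched by its usual letters on both strands, with overlapping matches kept.
Nfkbia, chr12:55492628-55492747, minus strand: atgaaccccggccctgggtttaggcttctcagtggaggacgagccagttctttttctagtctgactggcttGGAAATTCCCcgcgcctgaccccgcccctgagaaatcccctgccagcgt
Nfkb2, chr19:46304637-46304756, plus strand: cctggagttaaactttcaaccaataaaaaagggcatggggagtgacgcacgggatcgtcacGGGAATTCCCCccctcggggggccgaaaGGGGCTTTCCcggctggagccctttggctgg
Tnfaip3, chr10:19015391-19015510, minus strand: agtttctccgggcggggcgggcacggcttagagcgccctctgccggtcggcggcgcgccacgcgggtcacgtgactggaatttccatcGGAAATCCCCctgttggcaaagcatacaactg
Bcl3, chr7:19822736-19822855, minus strand: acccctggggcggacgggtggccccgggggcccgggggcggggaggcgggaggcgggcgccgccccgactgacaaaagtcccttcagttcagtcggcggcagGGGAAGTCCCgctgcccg
Cxcl1, chr5:90891145-90891264, plus strand: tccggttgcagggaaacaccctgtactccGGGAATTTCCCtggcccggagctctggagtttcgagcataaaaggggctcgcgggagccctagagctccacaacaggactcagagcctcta
The RefSeq table used here held promoters of 250 bases before to 50 after the start for 6 of the 9 genes (Nfkb2, Rela, Nfkbia, Tnfaip3, Tnfaip2 and Birc3). A match lay in that window for 4 of the 6: Nfkb2, Nfkbia, Tnfaip3 and Tnfaip2. Of all 27025 genes with a promoter in the table, 9.55% had a match in any of their promoters, as did 25 of the 79 genes (31.6%) with a promoter there from the lists of the wider pathway described further on. In Nfkbia the match began at position -29, counted from the start. The first of the 3 Nfkb2 promoters held 3 matches, of which an overlapping pair began at -39 and -38. A match is a description of these letters only.

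The arrays were alike in overall brightness: their median signal lay between 200.05 and 229.3, and 8.69% to 11.7% of probe sets were below a signal of 16. Markers of the labelled tissue were bright on all 24 arrays, with Sftpc of alveolar type 2 cells between 27216 and 40839 and Scgb1a1 of club cells between 24983 and 37185. The 5′ to 3′ signal ratio of the Gapdh control probe sets, a measure of RNA integrity and labelling, moved with strain: it was 0.781 to 1.03 in OuJ and 0.497 to 0.944 in HeJ. A code in the labels, whose meaning is not given, falls into 3 series. Series 3 holds air and 6 h of both strains, series 10 the OuJ mice of 24 and 48 h, and series 13 the HeJ mice of 24 and 48 h. Changes at 24 and 48 h against air, and strain differences at those times, therefore cannot be told apart from the code series. In a bulk lobe, fewer cells of a type and less RNA per cell cannot be told apart either.

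With the brightest probe set standing for each gene, none of the 8 genes passed the test in any comparison with air. Changes are differences of log2(signal + 16) ± SE between groups of 3 arrays, from a limma model of all 24 arrays, and a gene passed at a Benjamini-Hochberg adjusted p under 0.05 over all 8008 genes. In OuJ, 0 of the 8 passed at 6, 24 and 48 h, against 0.137%, 6.57% and 7.9% of all genes. In HeJ, 0 of the 8 passed at the same times, against 0.0375%, 7.11% and 12.1% of all genes. Without adjustment, limma's p was under 0.05 for 4 of these 48 tests of a gene against air: Birc3 in OuJ at 6 h, Nfkb2 and Nfkbia in HeJ at 6 h, and Tnfaip2 in HeJ at 24 h. Of all genes, 10.5%, 19.9% and 21.5% had such a p in OuJ at 6, 24 and 48 h, and 9%, 21.8% and 25.2% in HeJ. By sign alone the 48 differences split into 24 above and 24 below 0.

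The precision of these arrays limits how small a change could be seen. Of the 48 differences from air, 46 had a 95% interval that lay wholly between a halving and a doubling on the log2(signal + 16) scale, which understates the change of dim genes. The exceptions were Nfkb2 in HeJ at 6 h, whose interval reached down to -1.16, and Relb in HeJ at 48 h, whose interval reached up to 1.00. The median change of the 8 genes ran from -0.04 in HeJ at 6 h to 0.10 in OuJ at 24 h, beside a median of all 8008 genes between -0.03 and -0.02. The plot of changes against air shows that the points of each gene lie on both sides of 0 over the 6 comparisons, except for Rela, for which all 6 were below it.

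**Figure D1:**
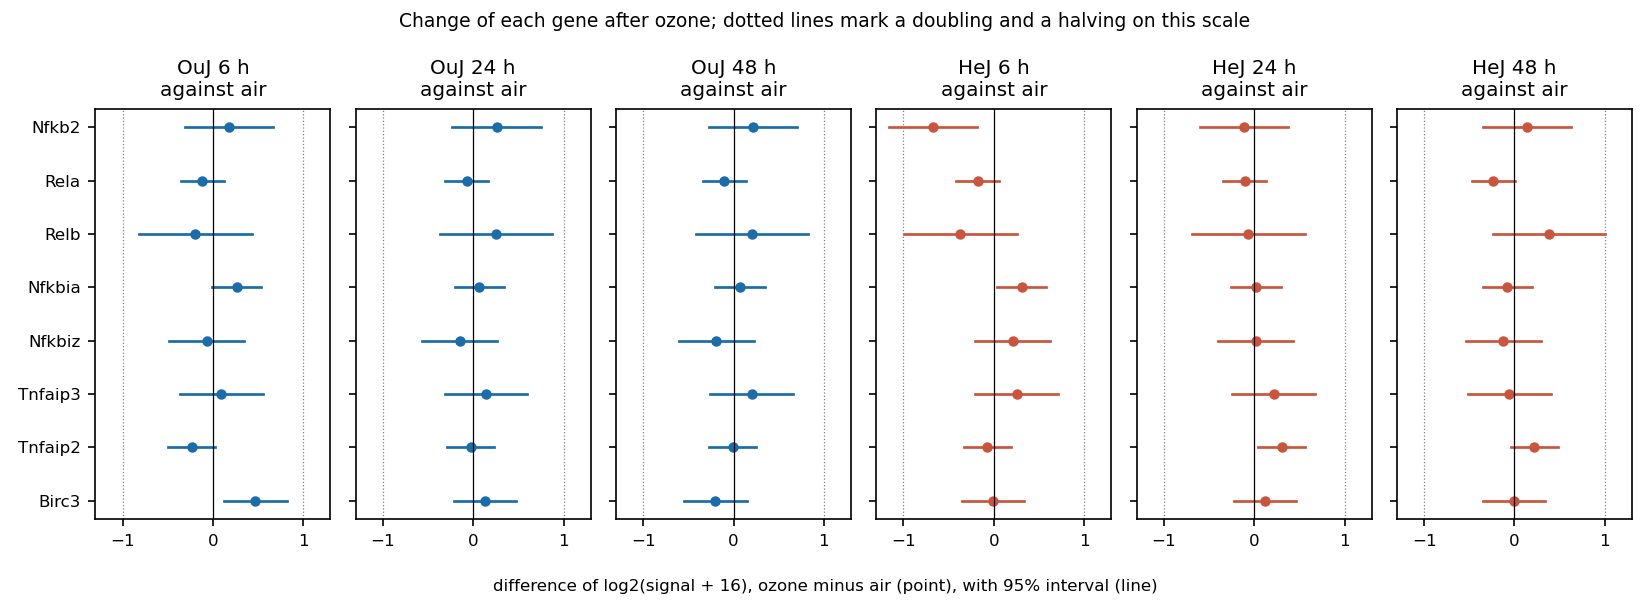
Change of each of the 8 genes after 6, 24 and 48 h of ozone in OuJ (blue) and HeJ (red), as the difference of log2(signal + 16) from air (point, n = 3 arrays per group) with its 95% interval (line); dotted lines mark a halving and a doubling. The intervals of 46 of the 48 differences stay between the dotted lines, and the largest differences are 0.47 for Birc3 in OuJ and -0.67 for Nfkb2 in HeJ, both at 6 h.

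Among the subunits, Rela, which encodes the p65 activator of the classical pathway, was bright and steady. In OuJ its signal was 3463, 2948 and 3641 in air, 2746, 3268 and 3250.1 at 6 h, 3065, 3071 and 3412 at 24 h, and 2686, 3435 and 3248 at 48 h. In HeJ it was 3251, 4399 and 4159 in air, 3570.1, 3329 and 3443 at 6 h, 3822, 3692 and 3395 at 24 h, and 3110.3, 3461 and 3366 at 48 h. The exposed arrays overlapped the air arrays at every time in both strains, although the exposed mean was the lower in all 6 comparisons, also after quantile normalization and after median centring. The largest of these differences was -0.24 ± 0.12 in HeJ at 48 h (limma, adjusted p = 0.20).

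Nfkb2 encodes p100, which holds Relb inactive until it is processed to the p52 subunit of the alternative pathway. Its signal in OuJ was 311, 273 and 370.5 in air, 306, 411 and 372 at 6 h, 345, 314 and 508 at 24 h, and 293, 444 and 389 at 48 h. In HeJ it was 449, 480.5 and 414 in air, 419, 317 and 154 at 6 h, 444, 377 and 419 at 24 h, and 451, 555 and 482 at 48 h. The HeJ 6 h group had the lowest mean of the 8 groups, and replicate 3 alone stood far below the rest of that group. The difference from air there was -0.67 ± 0.24 (limma, adjusted p = 0.415). A second, dimmer Nfkb2 probe set went the other way: it differed from air by 0.59 ± 0.29 in HeJ and by -0.44 ± 0.29 in OuJ at 6 h, where the first gave 0.18 ± 0.24 in OuJ. The probe sets of Nfkb2 thus disagreed in sign at 6 h in each strain.

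Relb, the partner of p52, was the most variable of the subunits. Its OuJ signals were 130.1, 201 and 182 in air, 69.3, 287 and 146 at 6 h, 175, 206 and 234 at 24 h, and 178, 271 and 156 at 48 h. Its HeJ signals were 272, 272 and 194 in air, 235, 188 and 142 at 6 h, 219.8, 244 and 233 at 24 h, and 311, 299 and 358 at 48 h. The 3 HeJ arrays at 48 h all lay above the 3 HeJ air arrays, and the difference was 0.38 ± 0.30 (limma, adjusted p = 0.47). At 6 h in OuJ the lowest and the highest Relb signal of that strain stood side by side in 1 group.

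**Figure D2:**
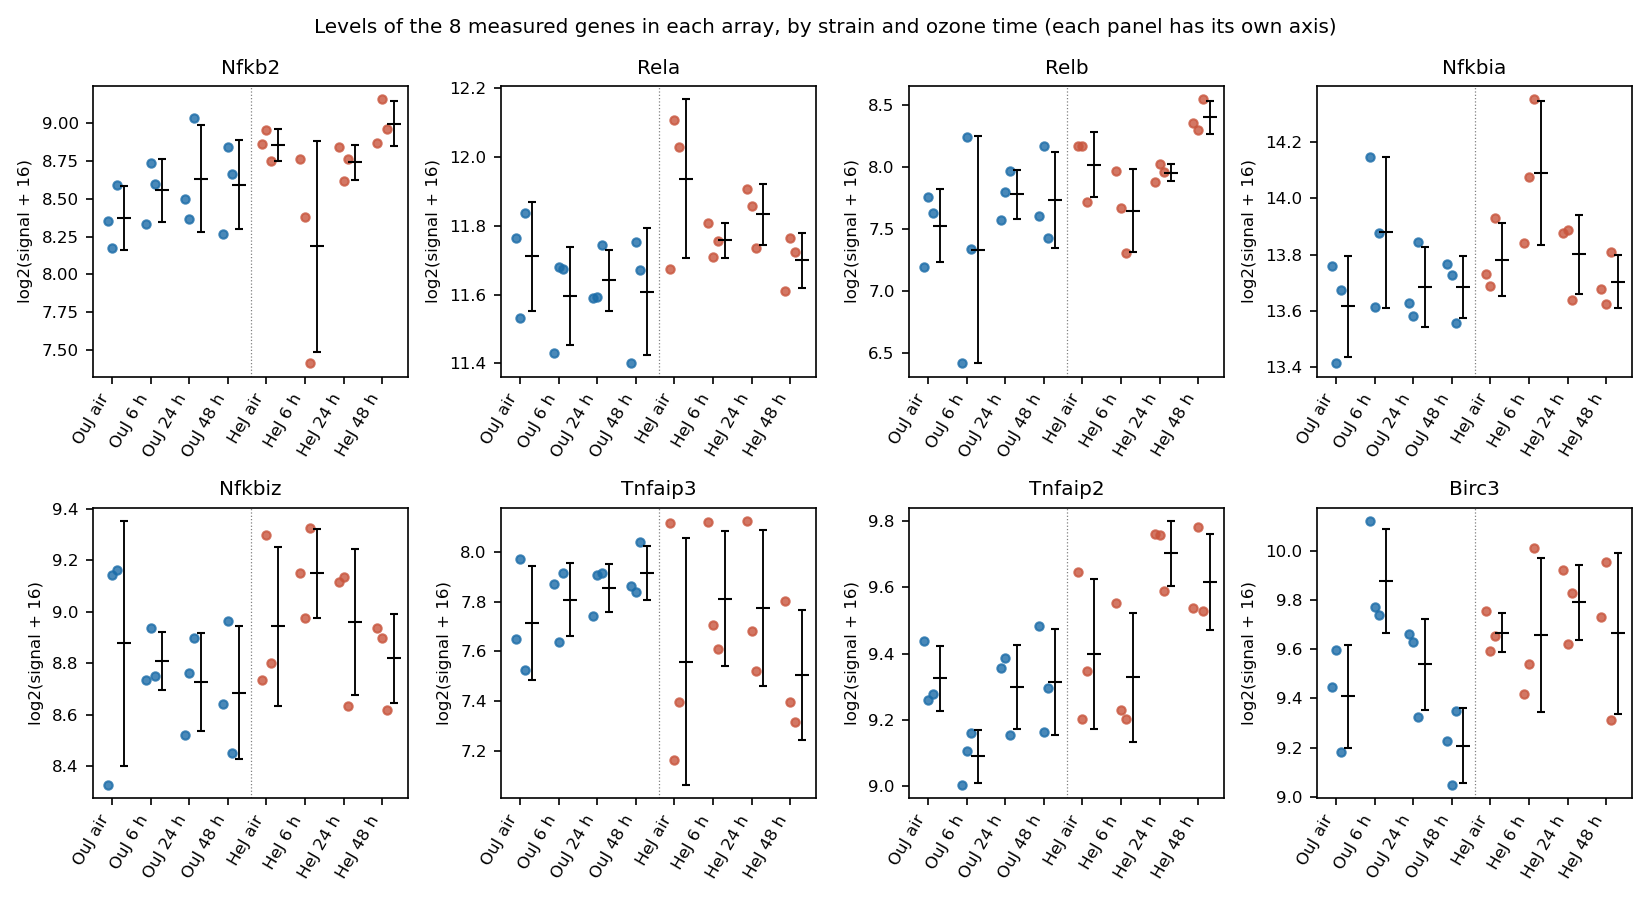
log2(signal + 16) of the 8 genes in each of the 24 arrays, by strain (OuJ blue, HeJ red) and exposure; points are arrays, and the black mark with its bar is the mean ± SD of the 3 arrays of a group. Group means of a gene span at most 1.07 (Relb) and at least 0.34 (Rela) on this scale, and the arrays of most groups overlap those of air.

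Nfkbia, which encodes IkB alpha, the inhibitor that NF-kB itself induces within hours, was measured by 4 probe sets. On the brightest of them the OuJ signal was 13841, 10892 and 13067 in air and 18129, 12504 and 15038 at 6 h. In HeJ it was 13566, 13172 and 15576 in air and 14668, 17245 and 20886 at 6 h. In both strains the 6 h mean was the higher, but 6 h arrays overlapped air arrays. The difference was 0.26 ± 0.13 in OuJ (limma, adjusted p = 0.50) and 0.31 ± 0.13 in HeJ (adjusted p = 0.501), and quantile normalization lowered the OuJ value to 0.12 ± 0.11. At 24 and 48 h the 4 differences lay between -0.08 and 0.07.

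The second and the third probe set of Nfkbia, in order of brightness, showed a larger 6 h difference. On the third the OuJ signal was 2682, 2189 and 2748 in air and 4087, 3481 and 3306 at 6 h. The HeJ signal of that probe set was 2602, 2952 and 3070.1 in air and 3253, 4101 and 4951 at 6 h. In both strains every 6 h array was above every air array. The difference was 0.51 ± 0.14 in OuJ and 0.49 ± 0.14 in HeJ, and neither passed when every kept probe set was tested (limma, adjusted p = 0.141 and 0.314). Averaged over both strains, a comparison chosen after the data were seen, it was 0.50 ± 0.10 and passed (limma, adjusted p = 0.0176), while the second gave 0.42 ± 0.11 (adjusted p = 0.0638) and the dimmest 0.18 ± 0.15 (adjusted p = 0.695).

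On the brightest probe set the same mean of both strains was 0.29 ± 0.09 (limma, adjusted p = 0.149). Over both strains at 6 h, 0 of the 8 genes passed, against 1.17% of all genes. An unadjusted limma p under 0.05 was found for 1 of the 8, beside 13.3% of all genes. The test found no strain difference in the 6 h change of Nfkbia: the OuJ change minus the HeJ change was -0.04, with a 95% interval of -0.43 to 0.34, on the brightest probe set and 0.02, from -0.40 to 0.44, on the third. At 24 h the signal of the third probe set was 2244, 2550.1 and 3156 in OuJ and 3005, 2936 and 2514 in HeJ, and it differed from air by 0.05 ± 0.14 and -0.03 ± 0.14. The plot of the 4 probe sets shows the 6 h arrays as a step above air in the middle pair of panels, with 24 and 48 h arrays that overlap those of air or lie below them.

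**Figure D3:**
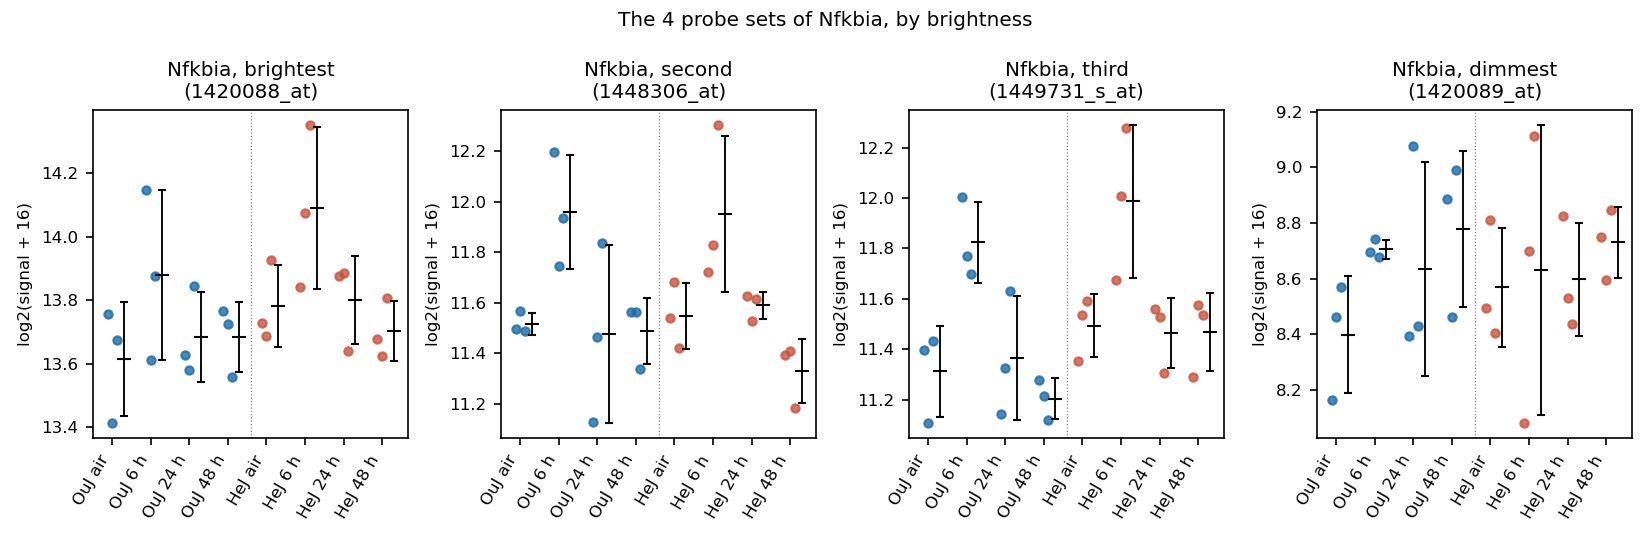
log2(signal + 16) of the 4 Nfkbia probe sets in each array, by strain and exposure (points, with mean ± SD of 3 arrays beside them; each panel has its own axis). On the second and the third all 3 of the 6 h arrays lie above all 3 air arrays in each strain, with differences of 0.44 and 0.51 in OuJ and 0.40 and 0.49 in HeJ.

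Nfkbiz encodes IkB zeta, a nuclear IkB protein that helps NF-kB switch on secondary targets such as acute phase genes. Its signal was 305, 549 and 557 in OuJ air, 410.4, 475 and 415 at 6 h, 352, 419 and 461 at 24 h, and 383, 484 and 334 at 48 h. In HeJ it was 409.5, 613 and 429.6 in air, 552, 488 and 624 at 6 h, 538, 546 and 381 at 24 h, and 474, 461 and 377 at 48 h. Air and exposed arrays overlapped in each of the 6 comparisons, the differences lay between -0.19 and 0.21, and the lowest adjusted p of these was 0.658 (limma).

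Tnfaip3 encodes A20, which removes the ubiquitin chains that relay the signal to IkB kinase. It was dim, with OuJ signals of 185, 235 and 168 in air, 218, 183 and 225 at 6 h, 199, 225 and 226 at 24 h, and 217, 213 and 247 at 48 h. HeJ signals were 262, 127 and 153 in air, 263, 193 and 179.5 at 6 h, 264, 189 and 168 at 24 h, and 207, 152 and 143 at 48 h. Replicate 1 was the highest Tnfaip3 array in each HeJ group, and exposed arrays overlapped air arrays at every time in both strains. The differences from air ran from -0.06 to 0.25, and their 95% intervals together from -0.51 to 0.71.

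Of the targets, Birc3, which encodes the ubiquitin ligase cIAP2 of the tumour necrosis factor receptor complex, had the largest difference above air on the brightest probe set of each gene. In OuJ its signal was 682, 759 and 564 in air and 1100.4, 858 and 839 at 6 h, so that the groups did not overlap. The difference was 0.47 ± 0.17 (limma, adjusted p = 0.247), a factor of 1.39 with a 95% interval of 1.09 to 1.76. In HeJ the signal was 848, 757 and 791 in air and 668, 729.6 and 1018 at 6 h, a difference of -0.01 ± 0.17. The OuJ change minus the HeJ change was 0.48 ± 0.24 (limma, adjusted p = 0.844). At 48 h in OuJ the signal was 583, 513 and 637, the lowest group mean of the gene, and the difference from air there was -0.20 ± 0.17.

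Tnfaip2, a target of tumour necrosis factor expressed in endothelium and myeloid cells, had the lowest adjusted p of the 8 genes against air. In HeJ its signal on the brighter of its probe sets was 785, 573 and 636 in air, 735, 584 and 574 at 6 h, 851, 850.2 and 754 at 24 h, and 727, 865 and 723 at 48 h. The 24 h arrays were higher on average by 0.30 ± 0.13 (limma, adjusted p = 0.148), with 1 air array inside their range. In OuJ it was 678, 598 and 605 in air, 497, 535 and 556 at 6 h, 639.9, 653 and 554 at 24 h, and 699.7, 558 and 613 at 48 h. The OuJ 6 h arrays were all below the air arrays, by -0.24 ± 0.13 (limma, adjusted p = 0.528).

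On the second Tnfaip2 probe set the HeJ signal was 414, 473 and 454 in air, 396, 509 and 378 at 6 h, 576, 489 and 498 at 24 h, and 594, 801 and 638 at 48 h. The 24 and 48 h arrays lay above all air arrays. At 48 h the difference was 0.57 ± 0.13, and it passed when every kept probe set was tested (limma, adjusted p = 0.00759). The OuJ difference on the same probe set was 0.00 ± 0.13, and the OuJ change minus the HeJ change was -0.58 ± 0.19 (limma, adjusted p = 0.399). The brighter probe set gave 0.22 ± 0.13 in HeJ at 48 h (limma, adjusted p = 0.296), so that the call rested on 1 of the 2 probe sets. Markers of other cell types moved at that time in HeJ, where 4 of 6 endothelium markers were lower. Of 7 macrophage and monocyte markers 2 were higher and 1 lower, and the summed macrophage signal was 12048 to 15299 against 11432 to 12370.2 in air. In OuJ at 48 h the endothelium markers Pecam1, Cdh5 and Kdr passed as lower too (-0.38 ± 0.10, -0.38 ± 0.11 and -0.53 ± 0.15). None of that list passed as higher there, and no macrophage or monocyte marker passed. The part of these markers in the Tnfaip2 difference was not tested.

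On the brightest probe sets, exposed and air arrays did not overlap for Tnfaip2 and Birc3 in OuJ at 6 h and Relb in HeJ at 48 h. These were 3 of the 48 comparisons. Of all genes, 16.9%, 26.2% and 29.9% did not overlap in OuJ at 6, 24 and 48 h, and 12.4%, 24.3% and 30.8% in HeJ. Dimmer probe sets are not counted here, such as those of Nfkbia at 6 h and Tnfaip2 in HeJ at 24 and 48 h given above. Pooling both strains at the later times, again chosen after the data were seen, gave 0 of 8 at 24 h against 16.4% of all genes and 0 of 8 at 48 h against 20.2%. Without adjustment, limma's p was under 0.05 for 0 of the 8 at 24 h and for Rela alone at 48 h (-0.17 ± 0.08). Of all genes, 29.1% and 32.3% had such a p at those times.

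The changes from 24 to 48 h and the strain comparisons that the design implies gave no call among the 8 either. From 24 to 48 h, 0 of 8 passed in OuJ, where 0.15% of all genes did, and 0 of 8 in HeJ, where 5.46% did. For the strains in air, 0 of 8 passed beside 0.774% of all genes. For the strain difference of the change at 6, 24 and 48 h, 0 of 8 passed each time, beside 0.0125%, 0.0125% and 0% of all genes. Without adjustment, limma's p was under 0.05 in 1 of these 48 tests, for Nfkb2 at 6 h: its OuJ change minus its HeJ change was 0.85 ± 0.33 (adjusted p = 0.824), and its second probe set gave -1.03 ± 0.41. Such a p was found for 5.74% of all genes (strain difference of the change at 6 h) to 20.8% (HeJ, 48 h against 24 h).

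Averaged over air and the 3 ozone times, a comparison added after the data were seen, OuJ was lower than HeJ for 2 of the 8 genes, beside 11.9% of all genes that were lower in OuJ and 19.8% that differed in either direction. These were Tnfaip2 (-0.25 ± 0.06, limma, adjusted p = 0.00616) and Rela (-0.17 ± 0.06, adjusted p = 0.0433). Relb, at -0.41 ± 0.15, did not pass (adjusted p = 0.0557). Tnfaip2 was lower in OuJ without overlap at 3 of the 4 exposures on each of its probe sets; 3.51% of all genes tested were lower so at 3 or 4. On the second probe set the mean difference was -0.51 ± 0.07 (limma, adjusted p = 1.66e-05).

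Against air, code series moved with the groups at 24 and 48 h. In HeJ the Gapdh ratio was 0.511 to 0.621 in air and 0.605 to 0.944 at 24 h. In the strain comparison, RNA quality moved with the groups, as the Gapdh ratios given above differed between the strains, and code series did so at 24 and 48 h. Within code series 3, which holds air and 6 h of both strains, the strain differences were -0.16 ± 0.09 for Tnfaip2 (limma, adjusted p = 0.375) and -0.19 ± 0.09 for Rela (adjusted p = 0.231). There 0 of the 8 genes passed. That fit used fewer arrays and had larger SE, so the count does not show that the strain differences were absent. The part of RNA quality in these strain differences was not tested. Without adjustment, 4 of the 8 genes had a p under 0.05 over the 4 exposures, as did 32.7% of all genes.

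**Figure D4:**
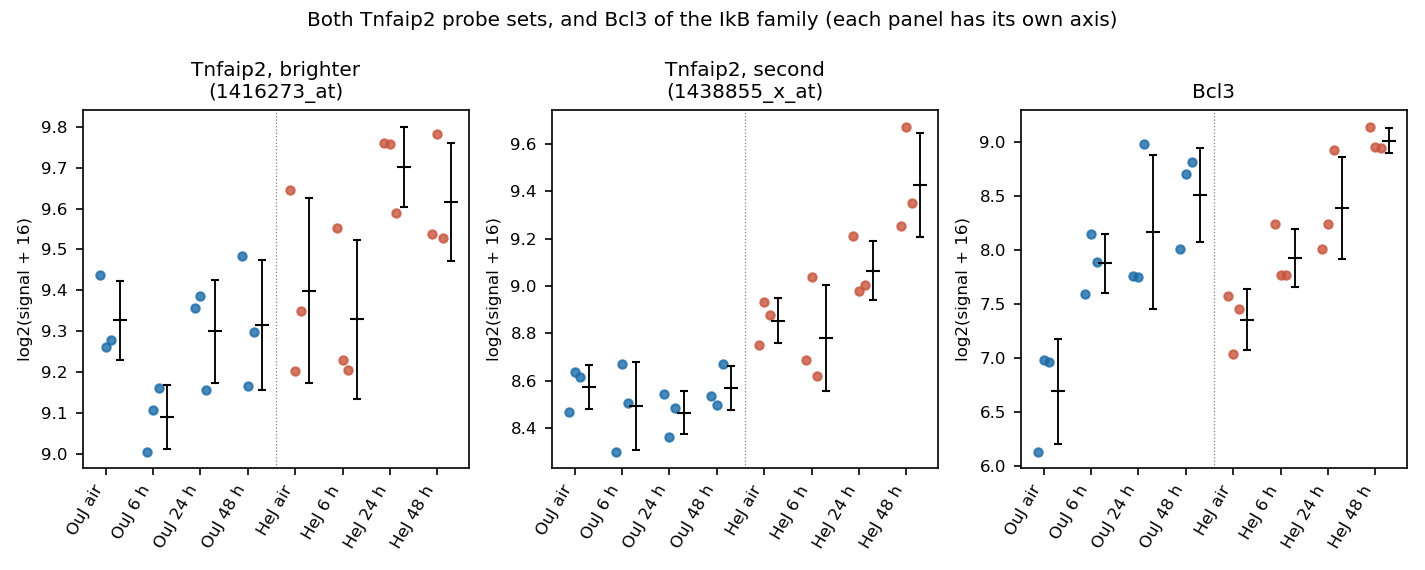
log2(signal + 16) of both Tnfaip2 probe sets and of Bcl3 in each array, by strain and exposure (points, with mean ± SD of 3 arrays beside them). Tnfaip2 on its second probe set lies lower in OuJ and reaches 594 to 801 signal units in HeJ at 48 h, and Bcl3 is above air in every 24 and 48 h array of both strains.

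The wider pathway was described with lists of receptors, adaptors and kinases, other family members, other feedback regulators and target genes. These lists were chosen with earlier results of these data known. Of the other Rel and IkB family genes, 5 of 9 listed were tested. Against air 1 of the 5 passed in at least 1 comparison within a strain, beside 20.5% of all genes. It was Bcl3, a nuclear IkB protein that partners p50 and p52 dimers, and it rose. Its OuJ signal was 54, 111 and 109 in air, 177, 268 and 220.5 at 6 h, 201, 199.7 and 492 at 24 h, and 242, 400.4 and 434 at 48 h. Its HeJ signal was 175, 115 and 159.6 in air, 287, 203 and 202 at 6 h, 242, 287 and 469.7 at 24 h, and 550.4, 480.1 and 478 at 48 h. In both strains every exposed array was above every air array. Bcl3 rose by 1.48 ± 0.30 at 24 h and 1.82 ± 0.30 at 48 h in OuJ (limma, adjusted p = 0.00411 and 0.000618), and by 1.04 ± 0.30 and 1.66 ± 0.30 in HeJ (adjusted p = 0.0411 and 0.00102). At 6 h it differed from air by 1.18 ± 0.30 in OuJ (adjusted p = 0.0855) and 0.57 ± 0.30 in HeJ (adjusted p = 0.603), and passed over both strains (0.88 ± 0.22, adjusted p = 0.044). The other genes of that list tested were Nfkbib, Nfkbil1, Nkiras1 and Nkiras2, none of which passed against air within a strain.

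Of all 8008 genes, 20.5% passed against air in at least 1 of the 6 comparisons, and 0 of the 8 genes described here did. Upstream of NF-kB, 3 of 10 receptor genes tested passed in at least 1. Cd14, the co-receptor that passes lipopolysaccharide to Tlr4, rose by 0.60 ± 0.14 at 24 h and 0.52 ± 0.14 at 48 h in OuJ and by 0.44 ± 0.14 at 48 h in HeJ (limma, adjusted p = 0.00795, 0.0183 and 0.0346). Tlr2, the receptor for bacterial lipoproteins, rose by 0.57 ± 0.12 in OuJ at 48 h (adjusted p = 0.00519). Cd40, a receptor of B cells and antigen-presenting cells, fell by 0.71 ± 0.20 on the log2 scale in OuJ at 24 h (adjusted p = 0.0379), when 5 of 5 B cell markers tested were lower and their summed signal was 1063 to 1545, against 3078 to 3816 in air; their part in it was not tested. Tlr4 itself lay between 161 and 299 and did not pass in either strain at any time, with differences of -0.14 to 0.31.

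Of 15 adaptors and kinases tested, 1 rose and 2 fell in at least 1 comparison with air, beside 20.5% of all genes that passed. Myd88, the adaptor shared by Toll-like and interleukin 1 receptors, rose in HeJ by 0.58 ± 0.12 at 24 h and 0.65 ± 0.12 at 48 h (limma, adjusted p = 0.00365 and 0.000905). In OuJ it differed from air by 0.31 ± 0.12 and 0.33 ± 0.12 (adjusted p = 0.125 and 0.0888). Traf5, an adaptor of the tumour necrosis factor receptor family, fell by 0.58 ± 0.15 and Map3k14, the kinase that starts Nfkb2 processing, fell by 0.43 ± 0.12 on the log2 scale in HeJ at 48 h (adjusted p = 0.0125 and 0.0212). Of 17 other feedback regulators tested, 1 passed, beside the same 20.5% of all genes. Ier3, an early response gene, fell by 0.49 ± 0.11 on the log2 scale in OuJ at 48 h (limma, adjusted p = 0.00872). Zfp36, which encodes the messenger RNA-degrading protein tristetraprolin, differed from air at 6 h by 0.34 ± 0.17 in OuJ and 0.47 ± 0.17 in HeJ (adjusted p = 0.507 and 0.415).

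Downstream, beside the same 20.5% of all genes, 5 of 9 cytokine and chemokine targets tested and 7 of 16 adhesion, enzyme and survival targets tested passed against air in at least 1 comparison. Because the lists were chosen with earlier results known, these counts are a description and not a test against the share of all genes. The other 10 of the 19 listed cytokine targets, Tnf and Il6 among them, had no probe set above the filter. The neutrophil chemokine Cxcl5 rose by 2.93 ± 0.53 at 24 h in OuJ and by 3.48 ± 0.53 at 48 h in HeJ (limma, adjusted p = 0.00117 and 0.000143). Cxcl1 rose by 2.04 ± 0.43 and 2.36 ± 0.43 in the same comparisons (adjusted p = 0.00466 and 0.000872). Ccl20, which attracts dendritic and T cells, rose by 3.12 ± 0.64 in HeJ at 48 h (adjusted p = 0.00251). Ccl5 and Ltb, both made by lymphocytes, fell by 0.86 ± 0.19 and 1.15 ± 0.25 on the log2 scale in OuJ at 24 h (adjusted p = 0.00671 and 0.00696), when 4 of 5 T and NK cell markers tested were lower and their summed signal was 862 to 944, against 2174 to 2939 in air; their part in it was not tested.

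The acute phase gene Saa3 rose by 2.73 ± 0.30 at 24 h in OuJ and by 4.19 ± 0.30 at 48 h in HeJ (limma, adjusted p = 8.12e-06 and 4.95e-09). Lcn2, an iron-binding antibacterial protein, rose by 1.13 ± 0.19 and 1.78 ± 0.19 (adjusted p = 0.000765 and 4.95e-06) in those comparisons. Sod2, the mitochondrial superoxide dismutase, rose by 0.42 ± 0.09 in OuJ at 24 h, Ptgs2, the inducible cyclooxygenase, by 1.16 ± 0.25 in OuJ at 48 h, and F3, tissue factor, by 1.51 ± 0.28 in HeJ at 48 h (adjusted p = 0.00639, 0.00591 and 0.00094). The median difference of the adhesion, enzyme and survival targets tested was 0.25 in OuJ and 0.32 in HeJ at 24 h and 0.16 and 0.26 at 48 h, beside medians of all genes between -0.03 and -0.02. For the cytokine list the median was -0.06 in OuJ at 24 h and 0.02 in HeJ at 48 h, and in each of these comparisons 3 of its 9 genes tested rose and 2 fell. The plot of calls by list shows these counts beside those of the 8 genes. For the target genes named, only some strains and times are given, so these values do not compare the strains. The strain difference of the change passed for 0.0125% of all genes at 24 h and 0% at 48 h.

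**Figure D5:**
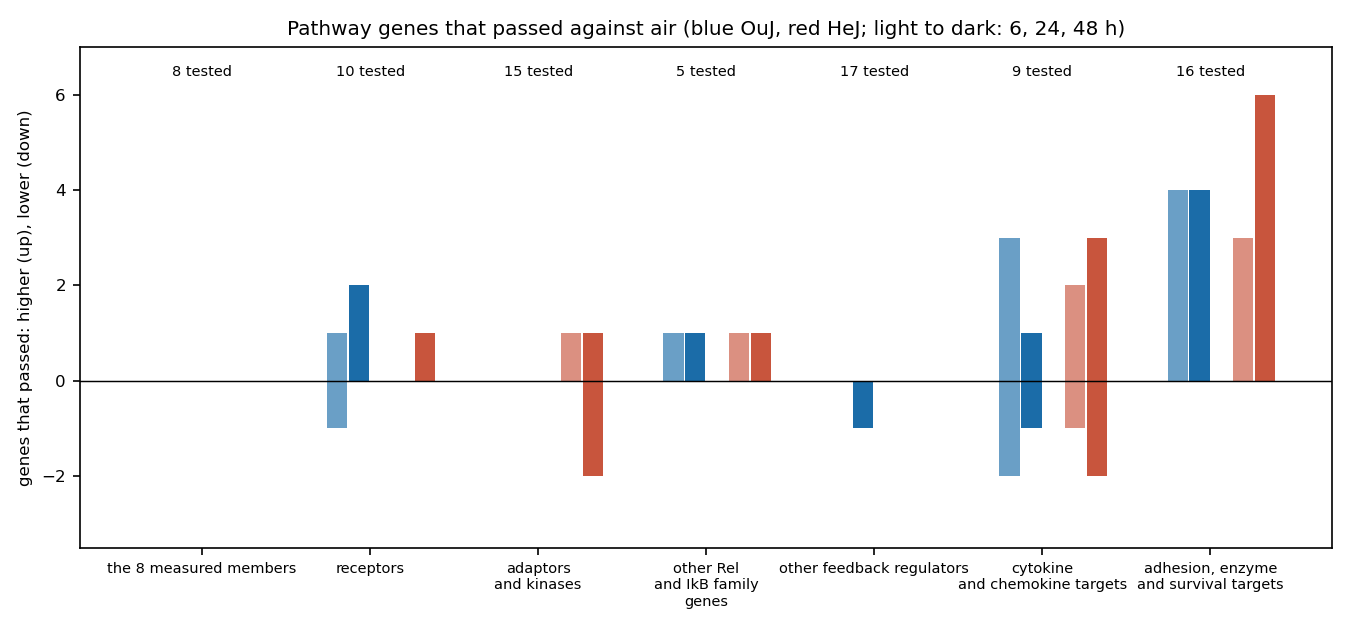
Number of genes in each list that passed against air, higher (above 0) or lower (below 0), in OuJ (blue) and HeJ (red) at 6, 24 and 48 h (light to dark), with the number tested above. The 8 genes described here have 0 calls. The most calls, 6 of 16 tested, are those of the adhesion, enzyme and survival targets in HeJ at 48 h. The genes and lists were chosen with earlier results of these data known.

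Genes whose 8 group means followed those of a member most closely were listed by Pearson r, as a description over 8 points that share strain, time and code series. Nfkbia was followed by Zadh2 (r = 0.940), Zfp36 (r = 0.938) and Elovl5 (r = 0.918). Tnfaip2 was followed by Lyar (r = 0.989), Terf2 and Tpcn2, and Birc3 by Rrp1 (r = 0.952), Cox4i1 and Pde9a. For the subunits these were Lrp5 (r = 0.980), Mtarc2 and Nacc1 beside Rela, Actg1 (r = 0.974), Atp5e and Gfm1 beside Nfkb2, and Trim27 (r = 0.970), Rexo2 and Zfand6 beside Relb. Beside Nfkbiz they were Hsd17b11 (r = 0.977), Nat9 and Pdgfrb, and beside Tnfaip3 they were Nmb (r = 0.978), Fmo2 and 6430548M08Rik. Over the 24 single arrays r was 0.687 for Nfkbia and Zfp36, 0.824 for Birc3 and Rrp1 and 0.416 for Tnfaip2 and Lyar. Among all pairs named it ran from -0.05, for Tnfaip2 and Terf2, to 0.824.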

How the data were processed

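Per the labels' protocols, RNA of each lung was TRIZOL-extracted, column-purified and biotin-labelled. The deposited values are linear signal intensity, which the authors computed in GCOS 1.4, per the submitters' processing notes; its settings are not stated there. From these, log2(intensity + 16) was computed, and a probe set was kept (12866 of 22690) if at least 3 arrays exceeded the overall median signal, 218.3. The brightest kept probe set stood for a gene, which gave 8008 genes. In R 4.3.3, limma 3.58.1 fitted 1 mean for each of the 8 groups, with an intensity trend, and p-values were adjusted within a comparison; it was tested on simulated data. The comparisons with air in a strain share 3 air arrays. The number of arrays limits the precision. The genes and lists were chosen with earlier results of these data known. All listed NF-kB genes are named. Of each other list, up to 3 genes per comparison with air that passed, by p, or up to 2 if none did, were marked for naming. Not all of these are given: the receptor genes Ltbr and Il18r1, for example, were left out. Tlr4 was added, as were the 3 genes most like each member by r. Of 22690 probe sets, 20380 carried 1 gene symbol, 691 several, 1555 none and 64 were controls; 20351 matched RefSeq. Alternatives were other normalizations, pseudocounts (1 and 64), filters, probe set rules, models and left-out arrays. The labels also mention 72 h, not analysed here.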

Additional observations from a re-analysis of the deposited data

How the results depend on the processing

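In the 12 comparisons that the design implies, 0 members passed under every alternative run, with 1 exception: in HeJ at 48 h against air 1 member, Tnfaip2, passed with the mean of the kept probe sets and with every kept probe set. Leaving out each array in turn gave 0 in each of these 12. For 6 h over both strains (0 members), both probe set alternatives gave 1, Nfkbia, and leaving out 1 array gave 0 to 1, with 1 without OuJ 6 h replicate 2 or HeJ 6 h replicate 1. For 48 h over both strains (0 members), every kept probe set gave 1, Tnfaip2, and leaving out 1 array gave 0 to 1, with 1, Rela, without HeJ air replicate 1. For the strains over the 4 exposures (2 members), median centring gave 4. No filter, no intensity trend and leaving out arrays with a code suffix gave 1 each. Code series 3 alone gave 0, and leaving out 1 array gave 1 to 3. The cause was not tested. Median centring also moved the median of all genes in this comparison, from -0.03 to -0.06. These counts are given without the share of all genes in each fit and do not set the members apart. Tnfaip2 passed in all 24 of those left-out fits and Rela in 10, with differences of -0.20 to -0.14. Whether equal replicate numbers pair the mice is not stated in the labels, and they were not treated as pairs: 5 of 27 pairs of same-numbered arrays had correlated deviations over 0.1 (range -0.08 to 0.20), although 19 of 24 arrays correlated best with their own number, a hint from the data and not the design. A fit with the replicate block gave 0 in the 12 comparisons. Scaling moved the median of all genes by less than 0.1. Genes near the filter, such as Tnfaip3 and Relb, are measured close to the median signal of the arrays, and intervals of the dim genes are wide.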

Other observations

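Within each strain, the 6 h array highest for Nfkbia on the brightest probe set was also highest for Fkbp5 and Tsc22d3. These are genes known as targets of the glucocorticoid receptor, of which Nfkbia is another. Over the 6 arrays of both strains the orders differed. Fkbp5 read 2942, 687 and 2254 in the 3 OuJ mice at 6 h and 493, 716 and 1445 in the 3 HeJ mice, against 397 to 480 in all 6 air mice. The Nfkbia signal on its brightest probe set in the same mice, in the same order, was 18129, 12504 and 15038 in OuJ and 14668, 17245 and 20886 in HeJ. Tsc22d3, which encodes the glucocorticoid-induced leucine zipper protein, read 7174, 3789 and 5870.3 in OuJ and 2361, 4190 and 5961 in HeJ at 6 h. With the brightest Nfkbia probe set, the order of the 3 mice was the same for the 3 genes in each strain. In OuJ it differed on the third Nfkbia probe set (4087, 3481 and 3306) and on the dimmest (399, 412 and 393.5). The OuJ mean of Tsc22d3 was 4650 at 24 h and 5023 at 48 h, against 2362 in air. In HeJ it was 3461 at 24 h and 1533 at 48 h, against 1892 in air. The OuJ mean of Nfkbia on the brightest probe set was 13193 and 13173 at those times, against 12600 in air. Its HeJ mean was 14303 and 13345.5, against 14105 in air. These genes were chosen after their values were seen, and their part in the 6 h difference of Nfkbia was not tested.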
